A study of Mus musculus with 12 samples.

Results

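The genes described here are 10 transcription factors of the hair matrix: Msx1, Msx2, Foxn1, Dlx1, Dlx2, Dlx3, Dlx4, Gata3, Ovol1 and Cux1. They were chosen by name, and their probes were found on the array through the RefSeq transcript that the scanner files give for each probe. All 10 genes were found, with 12 probes in all, among 20887 named genes on the array, and all 10 were among the 16191 genes that passed the filter on low signal. A probe passed if 3 or more of the 12 arrays flagged it as well above background. Each gene had 1 probe except Cux1, which had 3.

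The study measured gene expression in the skin of male mice 12 days after their hair was plucked, a procedure that starts a new growth phase of the follicles. One group of animals was wild type (WT) and the other carried the conditional deletion of Sox4 (cKO). Each mouse gave 1 single-colour Agilent array. The work was done as 2 experiments, and mice of Exp 1 were aged 68 to 72 weeks while mice of Exp 2 were aged 16 to 20 weeks. There were 3 WT mice in Exp 1 (mice 1, 2 and 3), 3 cKO mice in Exp 1 (mice 2, 5 and 6), 3 WT mice in Exp 2 (mice 4, 5 and 6) and 3 cKO mice in Exp 2 (mice 1, 3 and 4). All 12 mice were plucked and all were of a mixed C57Bl6/129Sv background, 75 parts to 25. The sources used here do not give the promoter or Cre line that removed Sox4. Experiment and age changed together and cannot be told apart. The array names carry a tag, P1 or P2, whose meaning the sources used here do not give. In Exp 2 all 3 WT arrays had P2 and all 3 cKO arrays had P1, so tag and genotype cannot be told apart there.

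The hair matrix is the group of dividing epithelial cells at the base of a growing follicle, wrapped around the dermal papilla. Its cells receive Wnt, BMP and Shh signals and differentiate upwards into the hair shaft and the inner root sheath. The factors described here are homeodomain proteins (Msx, Dlx and Cux1), a forkhead protein (Foxn1) and zinc finger proteins (Gata3 and Ovol1) that act in these cells as they leave the cell cycle and take on a fate, and several of them are also made in the epidermis.

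Levels below are log2 processed signals minus the 75th percentile of their array, so that a level of 0 is the 75th percentile and 1 unit is a doubling, and they may be compared between mice but not between probes. Between 53.9% and 62.6% of the probes of an array were well above background, and the 75th percentile itself lay between 364 and 554 intensity units. The array of cKO mouse 5 had the lowest value of both. Sox4, the deleted gene, was at 1.90, 2.20 and 1.97 in WT mice 1, 2 and 3 and at 2.16, 2.43 and 2.15 in WT mice 4, 5 and 6. It was at -3.86, -3.88 and -4.26 in cKO mice 2, 5 and 6 and at -3.05, -2.55 and -2.82 in cKO mice 1, 3 and 4. The groups did not overlap, every array matched its genotype label, and the Sox4 probe was not well above background in cKO mice 5 and 6. The difference over both experiments was -5.54 on the log2 scale (SE 0.12, limma adjusted p = 3.75e-09).

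Before any comparison, 2 sets of values stood apart. The array of cKO mouse 5 was far below the other 11 for most of the factors, so results are given with and without it, and this mouse was set apart with earlier results of these data known. The second is a column of the authors' deposited value table. Over 8980 genes, 11 of its 12 columns followed the array of their own mouse, with correlations of between 0.93 and 0.99 after the median of each gene was removed, across genes that are not independent. The column of cKO mouse 1 had a correlation of 0.38 with the array of cKO mouse 1, and its highest correlation, with cKO mouse 5, was 0.47. By rank correlation over the probes that passed the filter, with no median removed, each column matched its own array best. That correlation was 0.954 for cKO mouse 1 and from 0.998 to 0.999 for the other mice. The scanner files are therefore used for all levels below, and the values of that column are given separately.

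The promoters of Msx2, Dlx2 and Foxn1, among the 8 factors that fell together in cKO mouse 5, are shown first. That of Gata3, which did not fall, is beside them. The RefSeq promoter table (build GRCm38.p6) held 7 of the 10 genes, and windows for Dlx3, Dlx4 and Ovol1 were not used here. The 250 bases before the start of each gene are written 5′ to 3′ on the strand of the gene. Capitals mark 2 general promoter elements found on either strand, the CCAAT box (ATTGG) and the GC box (GGGCGG).
Msx2, chr13:53472781-53473030, minus strand: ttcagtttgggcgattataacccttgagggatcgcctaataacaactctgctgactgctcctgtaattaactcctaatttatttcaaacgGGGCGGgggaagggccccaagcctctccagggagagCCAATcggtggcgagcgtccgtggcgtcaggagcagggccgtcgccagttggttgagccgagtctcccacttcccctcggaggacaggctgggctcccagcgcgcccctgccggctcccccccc
Dlx2, chr2:71546755-71547004, minus strand: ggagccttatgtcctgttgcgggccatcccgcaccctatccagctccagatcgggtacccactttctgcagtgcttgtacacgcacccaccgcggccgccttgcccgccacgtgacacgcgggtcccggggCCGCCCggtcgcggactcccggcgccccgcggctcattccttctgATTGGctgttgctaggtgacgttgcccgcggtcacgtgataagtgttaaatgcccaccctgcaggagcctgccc
Foxn1, chr11:78386609-78386858, minus strand: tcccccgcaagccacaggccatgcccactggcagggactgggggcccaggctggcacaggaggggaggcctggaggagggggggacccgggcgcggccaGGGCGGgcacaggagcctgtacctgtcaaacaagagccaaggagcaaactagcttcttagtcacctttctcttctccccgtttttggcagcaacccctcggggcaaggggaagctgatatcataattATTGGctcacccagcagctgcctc
Gata3, chr2:9878601-9878850, minus strand: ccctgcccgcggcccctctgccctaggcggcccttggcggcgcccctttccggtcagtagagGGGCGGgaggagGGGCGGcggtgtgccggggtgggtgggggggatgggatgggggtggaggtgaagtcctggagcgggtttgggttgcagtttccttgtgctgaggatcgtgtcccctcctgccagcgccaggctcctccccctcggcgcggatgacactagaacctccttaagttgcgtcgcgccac
Msx2, Dlx2 and Foxn1 held both elements, as did Msx1, while Gata3 held the GC box alone and Dlx1 and Cux1 held neither. Msx1, Dlx1 and Cux1 fell in cKO mouse 5 as well, and any part of these elements in the fall was not tested. The CCAAT box was in 4 of the 7 windows and in 33.8% of all 32851 promoters, and the GC box was in 5 of 7 and in 32.7%. Both were looked for only after a search for other motifs in the 300 bases around the start had found none. In that search the TCF/LEF letters CTTTGA, the SOX letters AACAAT and AACAAAG, the homeodomain letters TAATTG and the GATA letters AGATAA, on either strand, had no match in the 7 windows. They occurred in 16.0%, 10.7%, 5.85%, 8.00% and 11.2% of all promoters. The 250 bases held 24 CpG dinucleotides in Dlx2, 22 in Dlx1, 20 in Msx1, 19 in Gata3, 18 in Cux1, 16 in Msx2 and 7 in Foxn1, against a median of 6 over all promoters.

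No change in any of the 10 factors was called between genotypes. Over both experiments all 10 differences, cKO minus WT, were at or below 0, from -1.01 for Dlx4 to -0.001 for Gata3, and their median was -0.32 against -0.04 over all genes tested. None was called by limma at an adjusted p under 0.05, where 0.42% of all genes were called. None had an unadjusted p under 0.05, while 1965 of all 16191 genes did. The smallest adjusted p of a factor was 0.42. Without cKO mouse 5 the median was -0.10, with 7 differences below 0 and 3 above, and again none was called, where 0.655% of all genes were. In that refit 4 factors had an unadjusted p under 0.05 by limma, Dlx1, Dlx4 and Cux1 lower in cKO mice and Msx1 higher. So did 1952 of all 16191 genes. In bulk skin, fewer matrix cells and less RNA per cell cannot be told apart.

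**Figure D1:**
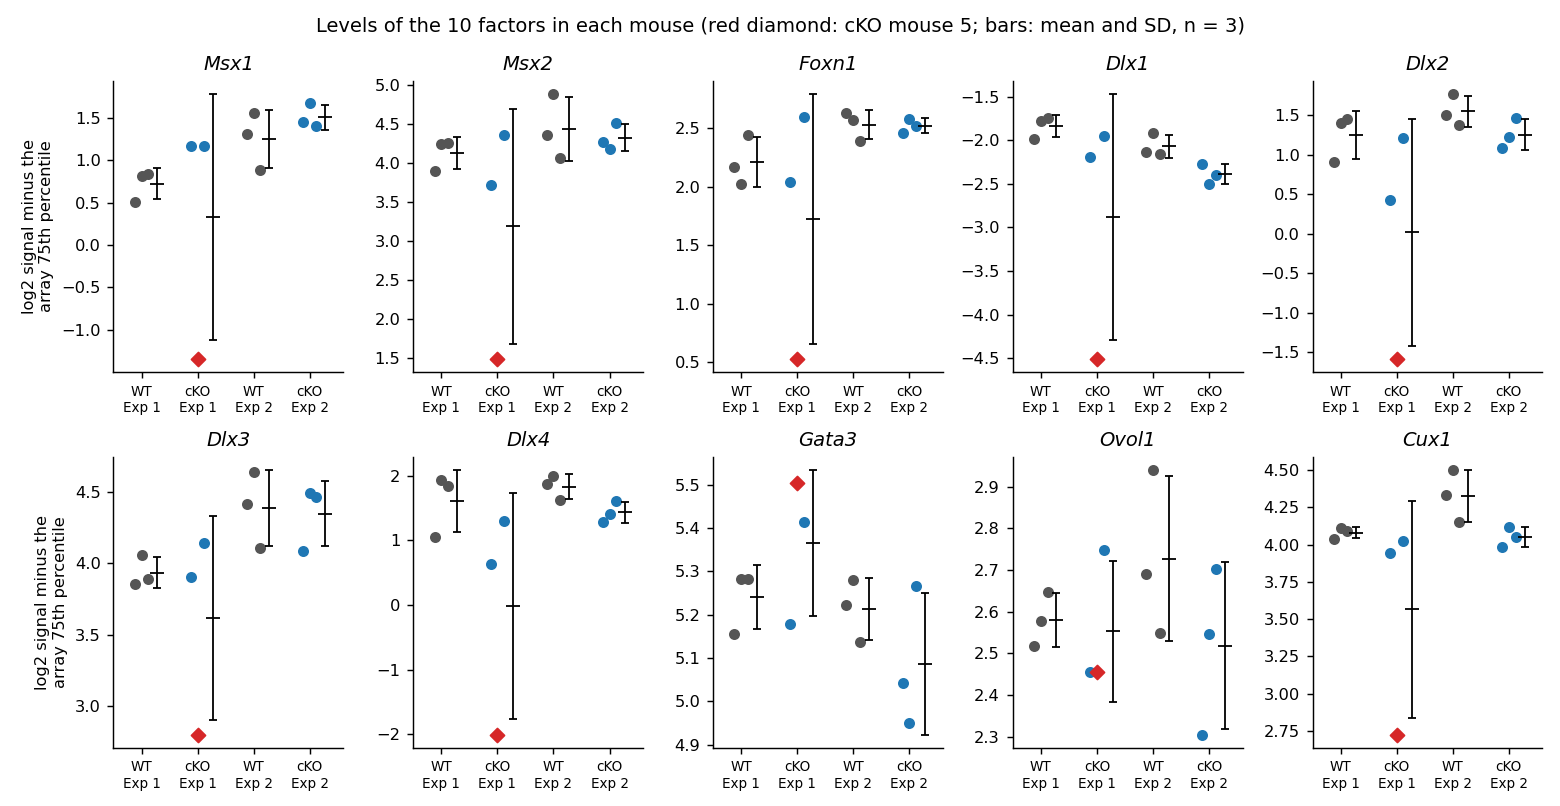
Level of each factor in each of the 12 mice, as log2 processed signal minus the array's 75th percentile, in the 4 groups of 3 mice. Points are mice, the red diamond is cKO mouse 5 and the black bars are group means with SDs. The red diamond is the lowest of 12 in 8 of the 10 panels, the exceptions being Gata3 and Ovol1.

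Msx2 is a homeodomain repressor of the matrix and precortex whose loss in mice gives defective hair shafts. Its level was 3.90, 4.25 and 4.26 in WT mice 1, 2 and 3 and 3.72, 1.49 and 4.36 in cKO mice 2, 5 and 6. In Exp 2 it was 4.37, 4.89 and 4.07 in WT mice 4, 5 and 6 and 4.28, 4.19 and 4.52 in cKO mice 1, 3 and 4. The groups overlapped in both experiments, and cKO mouse 5 was 2.23 below the next lowest mouse. In intensity units its processed signal was 1026 there and from 6567 to 13278 in the other 11 mice. The genotype difference was -0.53 (95% interval -1.43 to 0.38, adjusted p = 0.62 by limma) with all mice and -0.10 (-0.50 to 0.30) without cKO mouse 5.

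Msx1, the close relative of Msx2, went the other way in the mice that remained. It was at 0.51, 0.81 and 0.84 in WT mice 1, 2 and 3 and at 1.17, -1.34 and 1.16 in cKO mice 2, 5 and 6. It was at 1.31, 1.55 and 0.89 in WT mice 4, 5 and 6 and at 1.45, 1.67 and 1.40 in cKO mice 1, 3 and 4. Both cKO mice of Exp 1 other than mouse 5 lay above all 3 WT mice, as 1 of the 10 factors did against 9.5% of all genes, and the groups of Exp 2 overlapped. Its difference turned from -0.07 (-0.93 to 0.79) with all mice to 0.35 (0.06 to 0.64) without cKO mouse 5, and the latter was not called by limma (unadjusted p = 0.024, adjusted p = 0.33).

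Foxn1, the forkhead factor mutated in nude mice and a regulator of hair keratin genes, had levels of 2.16, 2.02 and 2.44 in WT mice 1, 2 and 3. It was at 2.04, 0.53 and 2.59 in cKO mice 2, 5 and 6. In Exp 2 its levels were 2.63, 2.57 and 2.39 in WT mice 4, 5 and 6 and 2.45, 2.58 and 2.52 in cKO mice 1, 3 and 4. The groups overlapped in both experiments, and the 3 cKO mice of Exp 2 lay inside the WT range. The genotype difference was -0.25 (95% interval -0.88 to 0.38) with all mice and 0.05 (-0.23 to 0.32) without cKO mouse 5, which as a ratio of cKO to WT is 1.03 (0.86 to 1.25).

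The 4 Dlx genes lie in 2 pairs of neighbours, Dlx1 with Dlx2 on chromosome 2 and Dlx3 with Dlx4 on chromosome 11. Dlx3, a homeodomain activator that the follicle needs to make hair, was at 3.86, 4.06 and 3.89 in WT mice 1, 2 and 3 and at 3.90, 2.80 and 4.15 in cKO mice 2, 5 and 6. It was at 4.42, 4.64 and 4.11 in WT mice 4, 5 and 6 and at 4.09, 4.50 and 4.47 in cKO mice 1, 3 and 4. Genotypes overlapped in both experiments, and the difference was -0.18 (-0.65 to 0.29) with all mice and 0.02 (-0.26 to 0.30) without cKO mouse 5.

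Dlx4, the neighbour of Dlx3, had the largest genotype difference of the 10. Its level was 1.06, 1.93 and 1.84 in WT mice 1, 2 and 3 and 0.63, -2.002 and 1.31 in cKO mice 2, 5 and 6. In Exp 2 it was 1.87, 2.002 and 1.62 in WT mice 4, 5 and 6 and 1.29, 1.42 and 1.61 in cKO mice 1, 3 and 4. Groups overlapped in Exp 1, and in Exp 2 the highest cKO mouse was just below the lowest WT mouse. The difference was -1.01 (95% interval -2.06 to 0.03, adjusted p = 0.42 by limma), and -0.52 (-0.94 to -0.09, adjusted p = 0.32) without cKO mouse 5.

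Dlx2, another homeodomain factor, had a pattern close to that of Dlx4. It was at 0.90, 1.39 and 1.46 in WT mice 1, 2 and 3 and at 0.42, -1.59 and 1.20 in cKO mice 2, 5 and 6. It was at 1.505, 1.76 and 1.37 in WT mice 4, 5 and 6 and at 1.08, 1.22 and 1.46 in cKO mice 1, 3 and 4. The groups overlapped in both experiments. The difference was -0.76 (-1.62 to 0.09) with all mice and -0.36 (-0.75 to 0.02) without cKO mouse 5, and neither was called by limma (adjusted p of 0.46 and 0.45).

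Dlx1 was well above background on 11 of the 12 arrays and not in cKO mouse 5, so that its level there is no more than an upper bound. It was at -1.98, -1.78 and -1.74 in WT mice 1, 2 and 3, and at -2.19, -4.51 and -1.95 in cKO mice 2, 5 and 6. It was at -2.14, -1.92 and -2.15 in WT mice 4, 5 and 6, and at -2.27, -2.50 and -2.39 in cKO mice 1, 3 and 4. All 3 cKO mice of Exp 2 were below all 3 WT mice, and in Exp 1 the groups overlapped by the margin of cKO mouse 6. The genotype difference was -0.68 (-1.498 to 0.14, adjusted p = 0.49 by limma) with all mice. It was -0.28 (95% interval -0.48 to -0.07, unadjusted p = 0.015, adjusted p = 0.28 by limma) without cKO mouse 5.

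Cux1, a homeodomain and CUT domain repressor needed for normal hair and inner root sheath, was the 1 factor whose cKO mice were all below the WT mice in both experiments. On its brightest probe it was at 4.04, 4.11 and 4.09 in WT mice 1, 2 and 3 and at 3.95, 2.73 and 4.03 in cKO mice 2, 5 and 6. It was at 4.33, 4.50 and 4.15 in WT mice 4, 5 and 6 and at 3.98, 4.12 and 4.05 in cKO mice 1, 3 and 4. The gaps were narrow, 4.03 against 4.04 in Exp 1 and 4.12 against 4.15 in Exp 2. All cKO mice were below all WT mice for 1 of the 10 factors in Exp 1, against 7.2% of all genes, for 3 in Exp 2 (Dlx1, Dlx4 and Cux1), against 9.88%, and for 1 in both experiments, against 2.59%. The difference was -0.40 (95% interval -0.84 to 0.05, adjusted p = 0.46 by limma), and without cKO mouse 5 it was -0.19 (-0.37 to -0.004, adjusted p = 0.41).

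The other 2 Cux1 probes, both for a second transcript, did not show this separation. On one, the cKO mice 2, 5 and 6 were at -1.74, -3.49 and -1.21 and the WT mice 1, 2 and 3 at -1.004, -1.59 and -1.76. On the other, the cKO mice were at 0.77, 0.11 and 1.73 and the WT mice at 1.07, 1.93 and 1.74. Genotypes overlapped on both probes in Exp 1, and in Exp 2 both had a genotype difference of -0.11. All 3 probes were lowest of 12 in cKO mouse 5.

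Gata3, a zinc finger factor of inner root sheath cells that is also made in epidermis and in T cells, had the smallest spread between mice of a group, a pooled SD of 0.13. Its level was 5.16, 5.28 and 5.28 in WT mice 1, 2 and 3 and 5.18, 5.50 and 5.41 in cKO mice 2, 5 and 6. In Exp 2 it was 5.22, 5.28 and 5.14 in WT mice 4, 5 and 6 and 5.04, 4.95 and 5.27 in cKO mice 1, 3 and 4. Genotypes overlapped in both experiments, and cKO mouse 5 had the highest level of the 12. The difference of -0.001 had a 95% interval of -0.19 to 0.19, a cKO to WT ratio of 0.87 to 1.14.

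Ovol1, a zinc finger repressor of differentiating epidermis and hair, had the next smallest spread, a pooled SD of 0.17. Its level was 2.52, 2.58 and 2.65 in WT mice 1, 2 and 3 and 2.46, 2.46 and 2.75 in cKO mice 2, 5 and 6. In Exp 2 it was 2.69, 2.94 and 2.55 in WT mice 4, 5 and 6 and 2.31, 2.55 and 2.70 in cKO mice 1, 3 and 4. The groups overlapped in both experiments, and cKO mouse 5 lay within the range of the other 11. The difference was -0.12 (-0.35 to 0.11) with all mice and -0.09 (-0.34 to 0.15) without cKO mouse 5.

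**Figure D2:**
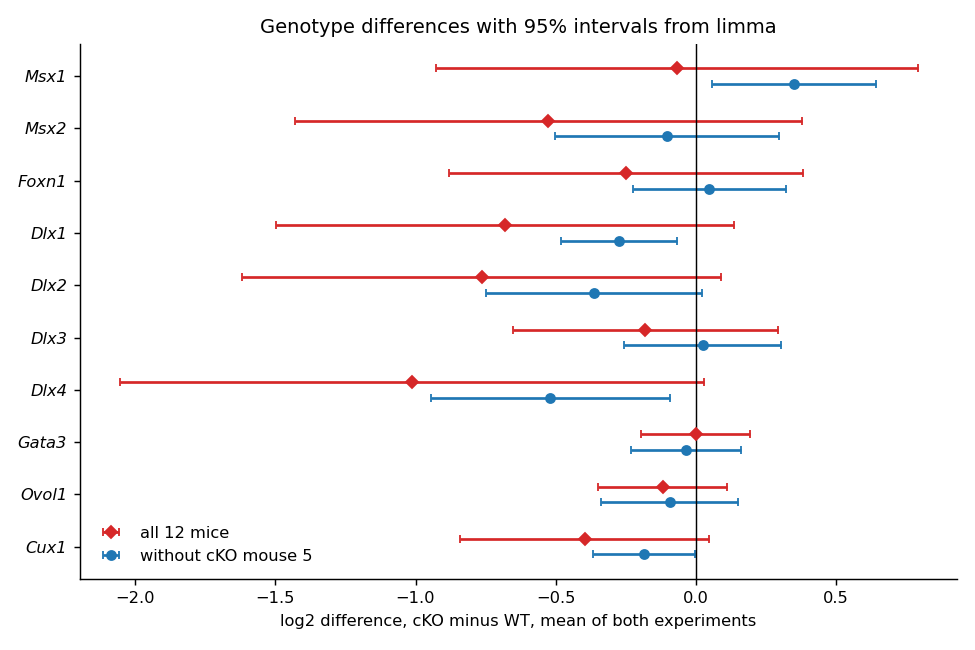
Genotype difference of each factor, cKO minus WT, as the mean of both experiments on the log2 scale. Points are limma estimates and bars are 95% intervals, for all 12 mice (red) and without cKO mouse 5 (blue). With all mice every interval includes 0, and without cKO mouse 5 the estimate of Msx1 lies at 0.35 and that of Dlx4 at -0.52. Without cKO mouse 5 the intervals of Msx1, Dlx1, Dlx4 and Cux1 exclude 0, before any adjustment for the number of genes.

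By experiment, the factors were again not called. In Exp 1 the median difference was -0.50, with 9 of 10 below 0, and in Exp 2 it was -0.17, also with 9 of 10 below 0. No factor was called in Exp 1, where 0.117% of genes were. Dlx2 and Dlx4 had an unadjusted p under 0.05 by limma there, as did 1829 of all 16191 genes. No factor was called in Exp 2 either, where 0.0618% of genes were. There no factor had an unadjusted p under 0.05, while 755 genes did. The difference between the experiments in the genotype effect, tested as an interaction in limma, was called for none of the 10 and for 0.00618% of genes, with no unadjusted p under 0.05. Without cKO mouse 5 the median in Exp 1 was -0.04, with 5 factors below 0 and 5 above. The 4 groups share 1 spread in the fit, so leaving out this mouse of Exp 1 also changed the tests in Exp 2. In that refit Dlx4 and Msx1 had an unadjusted p under 0.05 by limma in Exp 1, and Cux1 and Dlx1 in Exp 2. So did 1366 genes in Exp 1 and 1069 in Exp 2. No factor was called in either experiment, where 0.136% and 0.13% of genes were. The slide is known from the array headers. Slides 1 and 2 held mice of several groups, and slide 3 held cKO mouse 3 alone. With the slide as a block the genotype median was -0.38. Within the 6 arrays of slide 1 the genotype median was -0.32, with -0.06 in Exp 1 and -0.53 in Exp 2. The only mice of Exp 2 on slide 1 were WT mouse 5 and cKO mouse 1. Within the 5 arrays of slide 2 the genotype median was -0.79, where the only cKO mouse of Exp 1 was mouse 5.

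When the 4 group means of each factor were put in order, most neighbours overlapped mouse by mouse. Of 30 pairs of neighbouring group means, 3 for each factor, 5 did not overlap, against 10.4% of such pairs over all genes. Msx1 had the order cKO Exp 1 at 0.33 ± 1.45, WT Exp 1 at 0.72 ± 0.18, WT Exp 2 at 1.25 ± 0.34 and cKO Exp 2 at 1.51 ± 0.15 (SD, n = 3), and the step from WT Exp 1 to WT Exp 2 was the one without overlap. Foxn1 and Dlx3 each had a step without overlap from WT Exp 1 (2.21 ± 0.22 and 3.94 ± 0.11) to cKO Exp 2 (2.52 ± 0.06 and 4.35 ± 0.23). Cux1 had one from WT Exp 1 (4.08 ± 0.04) to WT Exp 2 (4.33 ± 0.17), and Dlx1 had one from cKO Exp 2 (-2.39 ± 0.12) to WT Exp 2 (-2.07 ± 0.13).

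Within WT mice, the older mice of Exp 1 had lower levels of 8 of the 10 factors than the younger mice of Exp 2, and no difference was called. The median of Exp 1 minus Exp 2 was -0.27 in WT, where 0.84% of genes were called by limma. No factor had an unadjusted p under 0.05 by limma there, while 2991 of all 16191 genes did. That test uses the spread shared by the 4 groups, which cKO mouse 5 enters. Refitted without this mouse, Msx1, Dlx3 and Cux1 had an unadjusted p under 0.05 by limma in WT, as did 3772 of all 16191 genes. Still no factor was called (smallest adjusted p = 0.11), where 3.66% of genes were. Msx1, Dlx3 and Cux1 did not overlap between the experiments in WT, which is 3 of 10 against 13.4% of genes. For Cux1 this was so on the brightest probe alone, and the other 2 probes were higher in Exp 1 in the mean, by 0.44 and 0.27. In cKO mice 8 of 10 were lower in Exp 1 with a median of -0.77, and no factor was called where 9.99% of genes were. Dlx2, Dlx3 and Gata3 had an unadjusted p under 0.05 by limma there, as did 4558 of all 16191 genes. Msx1 alone did not overlap there, against 13.8% of genes, and without cKO mouse 5 the median was -0.24. In that refit Dlx1 alone, higher in Exp 1 (0.31), had an unadjusted p under 0.05 by limma, as did 3708 of all 16191 genes.

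In cKO mouse 5 the factors of the matrix were low together. This mouse had the lowest level of all 12 for 8 of the 10 factors, against 20.8% of all genes, and for the same 8 factors it was more than 1 log2 unit below the lowest of the other 11, against 2.59% of all genes. Its level minus the median of the other 11 mice was -3.61 for Dlx4, a 12.2-fold lower signal, and -2.96 for Dlx2, a 7.76-fold lower one. It was 6.79-fold lower for Msx2, 5.69-fold for Msx1, 3.79-fold for Foxn1, 2.58-fold for Cux1 and 2.48-fold for Dlx3. Over all genes the median of the same difference was 0.02. Gata3 was the 1 factor at its highest in this mouse, against 21.4% of genes. These are values of 1 animal that was set apart for them, and they are given as a description.

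**Figure D3:**
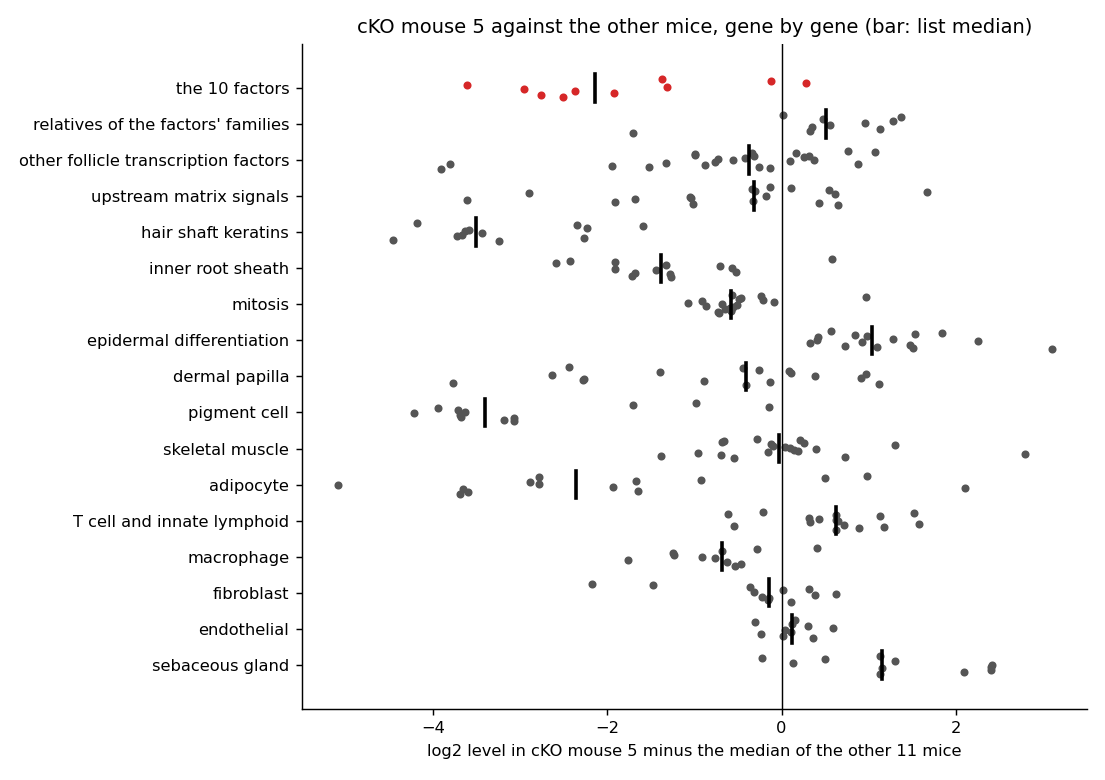
Level in cKO mouse 5 minus the median of the other 11 mice, on the log2 scale, for each gene of the 10 factors (red) and of 16 other lists (grey). Black bars are list medians. The factors have a median of -2.14, between the hair shaft keratins at -3.51 and the inner root sheath genes at -1.38, while epidermal differentiation genes have a median of 1.04.

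Other hair genes were low in the same mouse. All 12 hair shaft keratins measured were lowest of 12 there, with Krt35, a cortex keratin, at 4.88 against 7.47 to 8.83 in the other mice, and so were 12 of 14 inner root sheath genes. Of the pigment cell list 11 of 12 genes were lowest, and Pmel, a melanosome protein, was at 0.86 against 4.00 to 5.10. Its summed pigment level was 4.84 against 6.84 to 8.07, on the log2 scale, and its summed hair shaft level was 8.49 against 10.52 to 11.85. Of 14 adipocyte genes 10 were lowest and 2 were highest, Cidea (6.89 against 3.99 to 5.53) and Adig (3.07 against 1.54 to 2.54). The summed adipocyte level was 7.80 against 8.05 to 9.73, a sum weighted to the brightest probes, of which Cidea was one.

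Lists of other compartments differed from these. In cKO mouse 5 no gene of the 16 in the epidermal differentiation list was lowest and 14 were highest, and their summed level was 11.94 against 10.27 to 11.37. The sebaceous gland list had 7 of 11 genes at their highest and a summed level of 10.10 against 8.16 to 9.38. Of the T cell and innate lymphoid list 8 of 16 genes were highest. The dermal papilla list was mixed, with 8 of 17 lowest and 4 highest. Its genes Rspo2, Wif1, Corin, Hhip, Bmp6 and Ndnf, 6 of the 17, were more than 1 unit below the lowest of the other mice. The 4 at their highest were Rspo1, Prom1, Crabp1 and Sostdc1. The summed level of the list was 4.74, within the range of 4.36 to 4.81 of the other mice. That sum is weighted to the brightest probes, such as Sostdc1 at 3.38 and Rspo1 at 3.14, and does not show the falls. Of 19 mitosis genes 12 were lowest there, none by more than 1 unit, and their summed level was 6.14 against 6.23 to 7.11. The part of these cells in the low levels of the factors was not tested.

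Among 24 other transcription factors of the follicle, 13 were lowest in cKO mouse 5, 3 of them by more than 1 unit. Lef1, the Wnt effector of matrix and precortex, was at -1.10 against 2.12 to 3.40, Hoxc13, a regulator of hair keratins, at 1.62 against 3.12 to 4.09, and Foxe1, not well above background there, at no more than -4.88 against -1.30 to -0.54. Sox9, a factor of the outer root sheath and stem cells, was at 2.56, inside the range of 2.09 to 2.64. Highest in this mouse were 3 of the 24, Foxi3 (-2.81 against -3.94 to -3.18), Nfatc1 (1.34 against -0.02 to 0.73) and Pou3f1 (4.86 against 3.72 to 4.49). Among 18 upstream signals of the matrix 11 were lowest and 4 highest. Shh, which matrix cells secrete, was not well above background and at no more than -5.54 against -2.72 to -1.60. The 4 at their highest were Wnt3, Wnt10a, Jag2 and Notch1, the last at 0.79 against -1.46 to -0.34. Most relatives of the factors within their gene families did not share the fall, with 1 of 10 lowest and 5 highest. The lowest was Msx3, the Msx relative, not well above background there and at no more than -4.81 against -4.21 to -2.48. Among the highest, Dlx6 and Gata1 were well above background on only 6 and 5 arrays. Of these relatives, Gata1, Gata2, Gata5, Gata6 and Ovol2 belong with Gata3 and Ovol1, which did not fall themselves.

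The authors' deposited value table held low values of the factors in a second column. Its values are on a log2 scale with column medians of between 6.76 and 6.77, and the sources used here do not give their normalization. In its column of cKO mouse 1, 8 of the 10 factors were more than 1 unit below the lowest of the 10 columns other than those of cKO mice 1 and 5, against 3.42% of genes. Msx2 was at 9.40 in that column, 10.43 in the column of cKO mouse 5 and from 12.60 to 13.53 in the other 10. Ovol1 was at 9.34, 11.43 and from 11.46 to 11.78, so that in this column it was low as well, and Gata3 was at 14.24, 14.31 and from 13.80 to 14.32. Sox4 was at 6.81 in this column, within 6.51 to 7.07 in the 4 cKO columns other than those of mice 1 and 5 and below the lowest WT column at 10.78.

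The array file of cKO mouse 1 did not show this. There Msx2 was at 4.28, Foxn1 at 2.45 and Ovol1 at 2.31, of which only Ovol1 was the lowest of the 12 arrays. In the table's column all 12 hair shaft keratins were below the other 10 columns, and so were 18 of 19 mitosis genes, with a median of -1.56 against the other 10 columns. Skeletal muscle genes were 6.78 above the other 10 columns in the median there, against 0.41 in the column of cKO mouse 5. The sources used here do not say which of the file and the column holds cKO mouse 1.

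**Figure D4:**
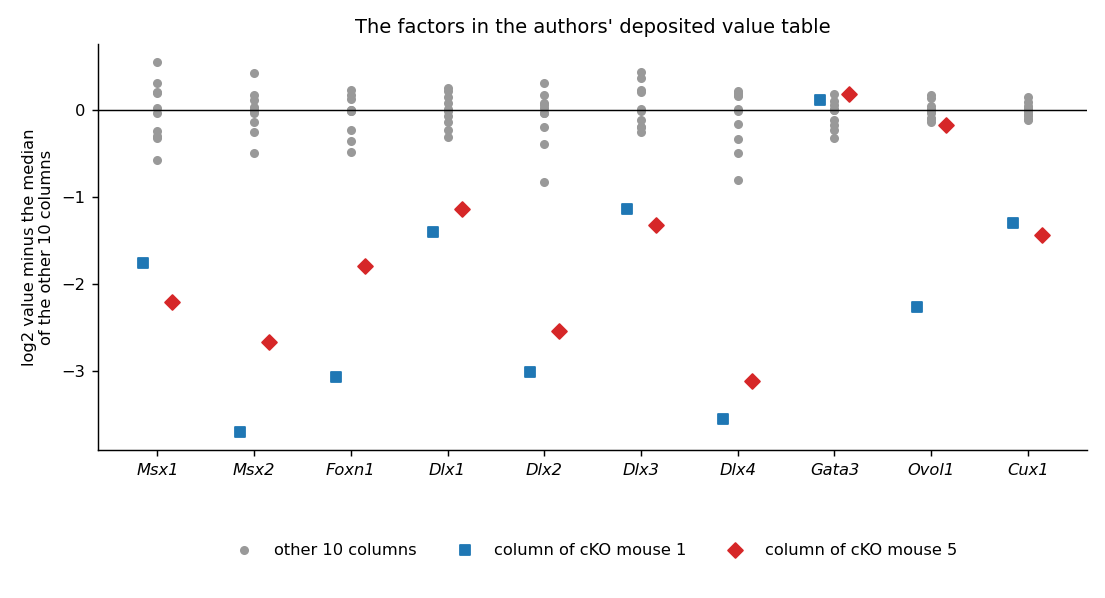
The authors' deposited log2 values of the 10 factors, each minus the median of the 10 columns other than cKO mice 1 and 5. Grey points are those 10 columns, the blue square is the column of cKO mouse 1 and the red diamond that of cKO mouse 5. In the blue column Msx2 lies at -3.70 and Dlx4 at -3.55, and Gata3 lies near 0 in both.

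Genes with the most similar pattern to each factor over the 12 mice were named by Pearson's r, and because cKO mouse 5 sets most of these values, r over the other 11 mice is given beside it. Dlx2 and Dlx4 had each other among their closest 3 (r = 0.99, and 0.96 without cKO mouse 5), together with Syt4 and Lef1. The closest gene to Msx2 was Tspan6 (0.996, and 0.98), followed by Smad6, a BMP pathway inhibitor, and Mlana, a pigment cell gene. Among the genes closest to Dlx1 were Zfp618 (0.99, and 0.94) and Shh (0.98, and 0.81). Dlx3 was closest to Dlx4os (0.98, and 0.96), an antisense gene at the neighbouring Dlx4 locus, then to Hoxc13 and Ppp2r1b.

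For the other factors the closest genes were Hes2, Crhr1 and Tbcel for Msx1 (Hes2 at 0.98, and 0.95 without cKO mouse 5), and Bean1, Ascl4 and Rnf182 for Foxn1 (Bean1 at 0.99, and 0.92). Cux1 was closest to Mybl2, a cell cycle factor (0.99, and 0.94), B3galt5 and Spsb4. Gata3 was closest to Rab5b (0.94, and 0.93), Tmem41a and Mtarc2, and Ovol1 to Gpn2 (0.92 in both), Psmc1 and Zfp593. The points are whole skin samples that share their slides and scaling.

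Of the genes around the factors, few were called and none for genotype with all mice. Among 24 other follicle transcription factors the genotype median was -0.14 with 18 below 0, among 18 upstream signals it was -0.08 with 13 below 0, and among 10 family relatives it was 0.11 with 4 below 0. Without cKO mouse 5, Shh was called lower in cKO mice (-0.63, adjusted p = 0.030 by limma), against -1.16 (SE 0.48, adjusted p = 0.38) with all mice. Between the experiments in cKO mice, limma called Gata6, a relative of Gata3, higher in Exp 1 (1.19, SE 0.22, adjusted p = 0.018), Jag2, a Notch ligand, higher (0.56, SE 0.11, adjusted p = 0.019) and Nog, a BMP inhibitor, lower (-2.28, SE 0.44, adjusted p = 0.019). Sox9 was called higher there (0.43, SE 0.09, adjusted p = 0.027) and missed the threshold without cKO mouse 5 (adjusted p = 0.053).

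Downstream lists were likewise not called for genotype. Hair shaft keratins had a genotype median of -0.48 with 11 of 12 below 0, which was -0.06 without cKO mouse 5, and inner root sheath genes one of -0.19, which was 0.04. All 19 mitosis genes measured were below 0, with a median of -0.36 that was -0.32 without cKO mouse 5, and Tpx2, a spindle protein, came nearest to a call (-0.54, SE 0.10, adjusted p = 0.057 by limma). The summed hair shaft level ranged from 10.67 to 11.23 in WT mice of Exp 1, from 8.49 to 11.23 in cKO mice of Exp 1, from 11.66 to 11.80 in WT mice of Exp 2 and from 11.45 to 11.85 in cKO mice of Exp 2. Between the experiments in cKO mice, 1 hair shaft keratin, Krt84, and 2 mitosis genes, Tpx2 and Kif11, were called lower in Exp 1. Krt84 was also called without cKO mouse 5, while Tpx2 (adjusted p = 0.064 by limma) and Kif11 (0.074) were not. All 12 hair shaft keratins were lower in Exp 1 in both genotypes. Their median was -1.01 in WT mice and -1.80 in cKO mice, the latter -0.92 without cKO mouse 5. In WT mice none of them was called with all mice, and Krt31, Krt34 and Krt82 were called lower without cKO mouse 5. The pigment cell median for genotype was -0.79, and -0.25 without cKO mouse 5.

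Other tissue also differed between the groups. Skeletal muscle genes had a genotype median of 2.24 with 20 of 20 above 0 and none called, and they were lower in Exp 1 than in Exp 2, with 16 of 20 called in cKO mice and 1 in WT mice. Without cKO mouse 5 these counts were 1 and 7. Their summed level, on the log2 scale, ranged from 2.32 to 2.95 in WT mice of Exp 1, from 3.16 to 6.25 in cKO mice of Exp 1, from 4.53 to 11.09 in WT mice of Exp 2 and from 10.04 to 11.08 in cKO mice of Exp 2. Genotype medians were 0.12 for epidermal differentiation, 0.22 for sebaceous gland, -0.07 for adipocyte, -0.17 for T cell and innate lymphoid, -0.19 for macrophage, -0.02 for fibroblast, 0.07 for endothelial and -0.38 for dermal papilla genes, none with a called gene. Without cKO mouse 5 the epidermal and sebaceous medians were -0.002 and 0.09, Cd3d, Cd3g and Il2rb of the T cell list were called lower in cKO mice, and Cfd of the adipocyte list was called higher. In cKO mice of Exp 1 against Exp 2, 9 of 16 epidermal differentiation genes were called higher and 6 of 11 macrophage genes lower. Without cKO mouse 5, 3 epidermal genes were called higher and 1 lower, and 3 macrophage genes were called lower. The part of these tissues in the levels of the factors was not tested.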

How the data were processed

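Total RNA of skin from 12 mice was hybridised in 1 colour (Cy3), 1 array per mouse, per the labels. The scanner files deposited by the authors give a processed signal in intensity units, background-corrected by the scanner software per the file headers, with flags for outlier spots and for spots well above background, which are other values. The deposited value table holds log2 values, and all 12 of its columns were matched to samples by name. The submitters' processing notes name limma, with no version.

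From these files, outlier spots were left out, spots of a probe were averaged, and log2 of the processed signal minus the array's 75th percentile was taken. Probes well above background on at least 3 of 12 arrays were kept, and the brightest probe stood for a gene. Of 55681 probes 27509 were named through unversioned RefSeq accessions. limma 3.58.1 in R 4.3.3 was fitted to the 4 group means, with Benjamini-Hochberg adjustment over all 16191 genes and a threshold of 0.05. The fit was tested on simulated data. Each p-value measures the spread between mice of 1 array each, and the number of arrays limits the precision.

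The members, lists and tests were chosen with earlier results of these data known. Named genes are Sox4, the 10 factors, up to 4 genes per list with the smallest p for genotype or for Exp 1 minus Exp 2 in WT, and the 3 genes most like each factor. One result of this last kind is not reported here. Genes of lists named for their value in cKO mouse 5 or their call between experiments in cKO mice were chosen after their values were seen. A comparison of protein sequences was not run. Alternatives were other scalings, background correction, filters and probe rules, the slide, the array-name tag, the deposited table, and each mouse left out.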

Additional observations from a re-analysis of the deposited data

Results flagged for a closer look

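Within the 6 mice of each genotype, the gap between the lowest mouse and the next, and between the highest and the next, was divided by the whole range and compared with Dixon's critical value of 0.625 for each factor. It was above that value in 8 of 20 sets, all of them cKO mice with cKO mouse 5 at the low end, and in none at the high end. About 1 in 20 sets passes by chance, but cKO mouse 5 had been set apart with these values known, so the count describes that mouse and is no independent support. The ratio was 0.874 for Cux1, 0.831 for Msx1, 0.786 for Dlx1, 0.735 for Msx2, 0.733 for Foxn1, 0.731 for Dlx4, 0.66 for Dlx2 and 0.651 for Dlx3. The 8 sets share 1 array, so they are 1 observation and not 8.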

How the results depend on the processing

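Across 25 alternatives, 281 of the counts and medians stayed within the spread between mice or within 1.5 times. This limit is wide, because the spread of 0.45 includes cKO mouse 5 and exceeds the main genotype median of -0.32. A median of 0.05 for genotype in Exp 2 within slide 2, against -0.17, stayed within it, and so did every count that remained at 0. The tally is therefore no measure of stability. No called factor changed direction, since none was called with all mice and the planned settings. Calls were gained within slide 2, where 1 residual degree of freedom was left and cKO mouse 5 was the only cKO mouse of Exp 1: 3 factors for genotype over both experiments, 7 for genotype in Exp 1, 4 for genotype by experiment and 8 for Exp 1 minus Exp 2 in cKO, where 2.92%, 8.12%, 2.42% and 18.4% of all genes were called. Their medians there were -0.79, -1.74, -1.90 and -2.05. Within slide 1 the medians were 0.32 for genotype by experiment and -0.10 for Exp 1 minus Exp 2 in cKO. With normexp and quantile normalization 1 factor, Gata3, was called for Exp 1 minus Exp 2 in cKO (0.32, adjusted p = 0.045 by limma), where 13.5% of all genes were. When the tag in the array names entered the fit, the median for genotype by experiment was -0.058, although in Exp 2 the tag coincides with genotype. In the authors' value table the medians were -0.71 for genotype in Exp 2, 0.11 for genotype by experiment and 0.033 for Exp 1 minus Exp 2 in cKO, and an alternative chosen after seeing the data, which left out the table's column of cKO mouse 1, gave medians within the spread between mice of the main ones.

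With 1 mouse left out at a time, the genotype median ranged from -0.49 to -0.10, from -0.87 to -0.036 in Exp 1 and from -0.30 to -0.10 in Exp 2. The median for genotype by experiment ranged from -0.99 to 0.12, that for Exp 1 minus Exp 2 from -0.36 to -0.15 in WT and from -1.12 to -0.24 in cKO. The values farthest from the main one in Exp 1 came without cKO mouse 5 or cKO mouse 6. The count of called factors ranged from 0 to 3 for Exp 1 minus Exp 2 in cKO, the 3 being Dlx2, Dlx4 and Foxn1, called lower without cKO mouse 6, where 14.4% of all genes were called, and was 0 in the other 5 comparisons.

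With the mouse number as a replicate block, no factor was called and the genotype median was -0.32. The labels do not say that a number pairs a WT with a cKO mouse. Deviations of same-numbered mice from their group means had correlations of between -0.26 and 0.07, and 0 of 6 cKO mice correlated best with their own number. The Dlx1 probe was not well above background in cKO mouse 5, and the number of mice, 3 per group, limits what differences could be called.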
